A study of Homo sapiens with 8 samples.

Results

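The genes described here are the class II transactivator CIITA, the invariant chain gene CD74 and 8 genes that encode chains of MHC class II molecules, HLA-DRA, HLA-DRB1, HLA-DPA1, HLA-DPB1, HLA-DQA1, HLA-DQB1, HLA-DMA and HLA-DMB. They were taken by symbol as protein-coding rows of the deposited expression table, and all 10 were found among its 60754 rows. RNA-seq libraries came from 2 clones, C17.2 and C3.2, of SEM, a human cell line of acute B-lineage lymphoblastic leukemia in which KMT2A is rearranged. In both clones a miniAID-mClover3 tag follows the 3′ end of both CTCF alleles, and a lentiviral cassette under the MND promoter expresses a mutant OsTIR1 with Zeocin resistance, so that the auxin analog 5-Ph-IAA degrades the tagged CTCF protein.

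Each clone gave 2 parental and 2 resistant libraries, 8 in all. Parental cells of both clones were untreated. Resistant cells of both clones had spent 36 days in 5-Ph-IAA at 1 μM with Zeocin at 100 μg/ml, followed by 48 h without either agent. By the study's account, resistant C17.2 cells carry a nonsense mutation that truncates CTCF, and resistant C3.2 cells carry a missense mutation in the miniAID tag with full-length CTCF. The study's immunoblots also showed tagged CTCF back in resistant C17.2 cells after the washout, together with the truncated form. Each clone is 1 derivative of 1 cell line, and nothing in the labels says that the libraries of a group came from separate cultures, so the p-values measure only the spread between these libraries. In bulk RNA, fewer cells that express a gene and less RNA per cell cannot be told apart.

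MHC class II molecules are heterodimers of an alpha and a beta chain that present peptides from the endosomal pathway to CD4+ T cells. The invariant chain encoded by CD74 guides newly made heterodimers to the endosome, where the non-classical molecule HLA-DM exchanges its remnant for peptide. B cells express the class II genes constitutively, through a promoter module of X and Y boxes that is bound by the RFX, CREB and NF-Y factors and brought to activity by CIITA, a coactivator that does not bind DNA by itself.

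The deposited values are TPM, a share of the library's transcripts that is normalized for transcript length and library size, so the read depth behind them is unknown. For comparisons between libraries they were divided by a library factor of 0.893 to 1.16 (scaled TPM), and the 15614 genes that reached 1 TPM in any library were tested with limma on log2(scaled TPM + 1). All 10 genes passed that filter. Replicate libraries correlated with a Pearson r of 0.968 to 0.979 across the tested genes. CTCF, the tagged gene, lay at 35.39 and 33.68 TPM in C17.2 parental, 51.06 and 54.73 TPM in C17.2 resistant, 32.17 and 32.26 TPM in C3.2 parental, and 44.18 and 41.49 TPM in C3.2 resistant libraries, so its RNA was higher in the resistant libraries of both clones (log2 fold change 0.44 in C17.2 and 0.34 in C3.2, limma adjusted p = 0.000795 and 0.00681). Among cell type markers, PAX5 of the B lineage lay between 116.18 and 193.40 TPM. Of 13 B-lineage markers, 3 (DNTT, RAG1 and BLNK) were under 1 TPM in every library. CD14 of monocytes stayed at or below 0.2 TPM. Of 13 monocyte and dendritic cell markers, 9 were under 1 TPM in every library, with CLEC9A, LYZ, CSF1R and VCAN as the exceptions. Of 9 T-cell markers, 8 were under 1 TPM in every library, with the T-cell receptor constant gene TRAC at 38.64 to 49.23 TPM as the exception.

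Of the 10 genes, 8 lie within the class II region of chromosome 6 (GRCh38, Gencode release 44). From the telomeric end these are HLA-DRA (ENSG00000204287.14, chr6:32439878-32445046, plus strand), HLA-DRB1 (ENSG00000196126.11, chr6:32577902-32589848, minus), HLA-DQA1 (ENSG00000196735.11, chr6:32628179-32647062, plus) and HLA-DQB1 (ENSG00000179344.16, chr6:32659467-32668383, minus). Further along lie HLA-DMB (ENSG00000242574.9, chr6:32934629-32941028, minus), HLA-DMA (ENSG00000204257.15, chr6:32948613-32969094, minus), HLA-DPA1 (ENSG00000231389.7, chr6:33064569-33080775, minus) and HLA-DPB1 (ENSG00000223865.11, chr6:33075990-33089696, plus). CIITA (ENSG00000179583.19) is at chr16:10866222-10943021 on the plus strand and CD74 (ENSG00000019582.15) at chr5:150401637-150412969 on the minus strand. HLA-DPA1 and HLA-DPB1 overlap each other on opposite strands, HLA-DMA overlaps BRD2, HLA-DQB1 overlaps an antisense gene, and CIITA overlaps DEXI. Whether the counting used strand was not stated, so reads in those overlaps are of uncertain origin. The HLA genes are also highly variable between people and were counted against a single reference, which makes levels compared between genes less certain than levels of 1 gene compared between libraries of this line.

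RefSeq promoter sequence (GRCh38.p14) was at hand for 8 of the 10 genes, with HLA-DPA1 having 2 starts. The 250 bases before each start were searched on both strands for ATTGG, the core of the Y box, and for the X1 box core, A-G-N-A-A-C-N-G with N any base. ATTGG was present in 7 of these 8 genes against 32% of all 35116 RefSeq promoters, and the X1 core in 5 of 8 against 12.6%. An X1 core followed on the same strand by ATTGG with 5 to 40 bases between them was found in 2 genes, HLA-DRB1 and HLA-DQA1, and in 0.496% of all promoters. The 150 bases that end at the transcription start are shown for these 2 genes, and for HLA-DMA and HLA-DMB because the products of the latter pair form 1 heterodimer while their RNA changed differently. Capitals mark every ATTGG (or CCAAT, its reverse complement) and every X1 core, and each sequence reads 5′ to 3′ on the strand of its gene.
HLA-DRB1 (chr6:32589849-32589998, minus strand): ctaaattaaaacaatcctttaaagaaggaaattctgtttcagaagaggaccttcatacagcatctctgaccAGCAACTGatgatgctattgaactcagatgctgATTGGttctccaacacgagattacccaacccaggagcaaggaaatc
HLA-DQA1 (chr6:32637256-32637405, plus strand): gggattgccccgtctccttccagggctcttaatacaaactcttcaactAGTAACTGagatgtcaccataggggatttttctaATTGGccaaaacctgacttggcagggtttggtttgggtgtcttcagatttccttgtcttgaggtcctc
HLA-DMA (chr6:32953098-32953247, minus strand): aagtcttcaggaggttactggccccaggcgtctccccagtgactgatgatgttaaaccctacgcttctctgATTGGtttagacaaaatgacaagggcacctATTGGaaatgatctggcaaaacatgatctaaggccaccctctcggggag
HLA-DMB (chr6:32941029-32941178, minus strand): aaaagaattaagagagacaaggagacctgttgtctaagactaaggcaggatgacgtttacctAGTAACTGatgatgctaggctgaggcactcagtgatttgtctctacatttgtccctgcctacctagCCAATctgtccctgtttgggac
HLA-DRB1, HLA-DQA1 and HLA-DMB hold an X1 core in this stretch, and HLA-DMA holds ATTGG in 2 places with no X1 core. HLA-DPB1 and HLA-DQB1 also held no X1 core in the 250 bases searched, and their RNA was lower in C17.2 resistant cells. Whether these letters bear on the RNA changes was not tested. These matches are descriptions of letters and were not read as binding.

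CD74 had the highest RNA level of the 10 genes in every group, with group means of 665.82 to 834.7 TPM. HLA-DRA followed, and HLA-DQA1 was the lowest in every group. CIITA ranked above HLA-DPA1 in both C17.2 groups and below it in both C3.2 groups. HLA-DPB1 came next, ahead of HLA-DQB1, HLA-DMA, HLA-DRB1 and HLA-DMB. Neighbors in this order did not overlap between libraries within any group, apart from HLA-DQB1 and HLA-DRB1 in C3.2 resistant cells, where HLA-DRB1 lay at 14.02 and 16.26 TPM and HLA-DQB1 at 15.94 and 15.35 TPM.

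The first question was whether class II genes and CIITA changed between parental and resistant cells in each clone. In C17.2, CIITA, CD74 and 6 class II chain genes were lower in resistant cells, 8 of 10 genes in all, with none higher. Among all 15614 tested genes, 13.9% were lower and 13.4% were higher in that clone at an adjusted p under 0.05. The median log2 fold change of the 10 genes was -0.36, against 0 for all genes tested. HLA-DRB1 and HLA-DMA did not pass the test.

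In C3.2 the direction was the opposite. CIITA, CD74, HLA-DRB1 and HLA-DMB were higher in resistant cells, 4 of 10 genes, and none was lower. Of all tested genes, 4.46% were higher and 6.9% were lower. The median log2 fold change of the 10 genes was 0.25, and the estimates of all 10 were above 0. After rescaling TPM within protein-coding genes, 9 of the 10 passed as higher. The 4 calls rested on few libraries: 0 genes passed without C3.2 parental replicate 1 or without C3.2 parental replicate 2, and 2 passed without C3.2 resistant replicate 2 or without either C17.2 parental replicate, which enters through the shared spread. All 10 estimates remained above 0 each time.

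The difference between the clones was then tested directly, as the change in C17.2 minus the change in C3.2. It was below 0 for 9 of the 10 genes, all but HLA-DMA, against 4.99% of all tested genes with a difference of that sign. CIITA, CD74 and HLA-DMB were both lower in C17.2 resistant cells and higher in C3.2 resistant cells, a combination met by 67 genes, or 0.429% of those tested. The count of 9 fell to 5 without either C17.2 parental replicate, without C17.2 resistant replicate 1 or without C3.2 parental replicate 1, and the difference of CIITA, CD74, HLA-DQB1 and HLA-DMB passed under each of the 16 alternatives run. HLA-DQA1 did not pass without either C17.2 parental replicate (adjusted p = 0.0553 and 0.0545), nor HLA-DPB1 without either C17.2 resistant replicate or without C3.2 parental replicate 1 (adjusted p 0.0544 to 0.0661). HLA-DRA did not pass in 6 of the 16, HLA-DPA1 in 8 and HLA-DRB1 in 9, most of them with a library left out.

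**Figure D1:**
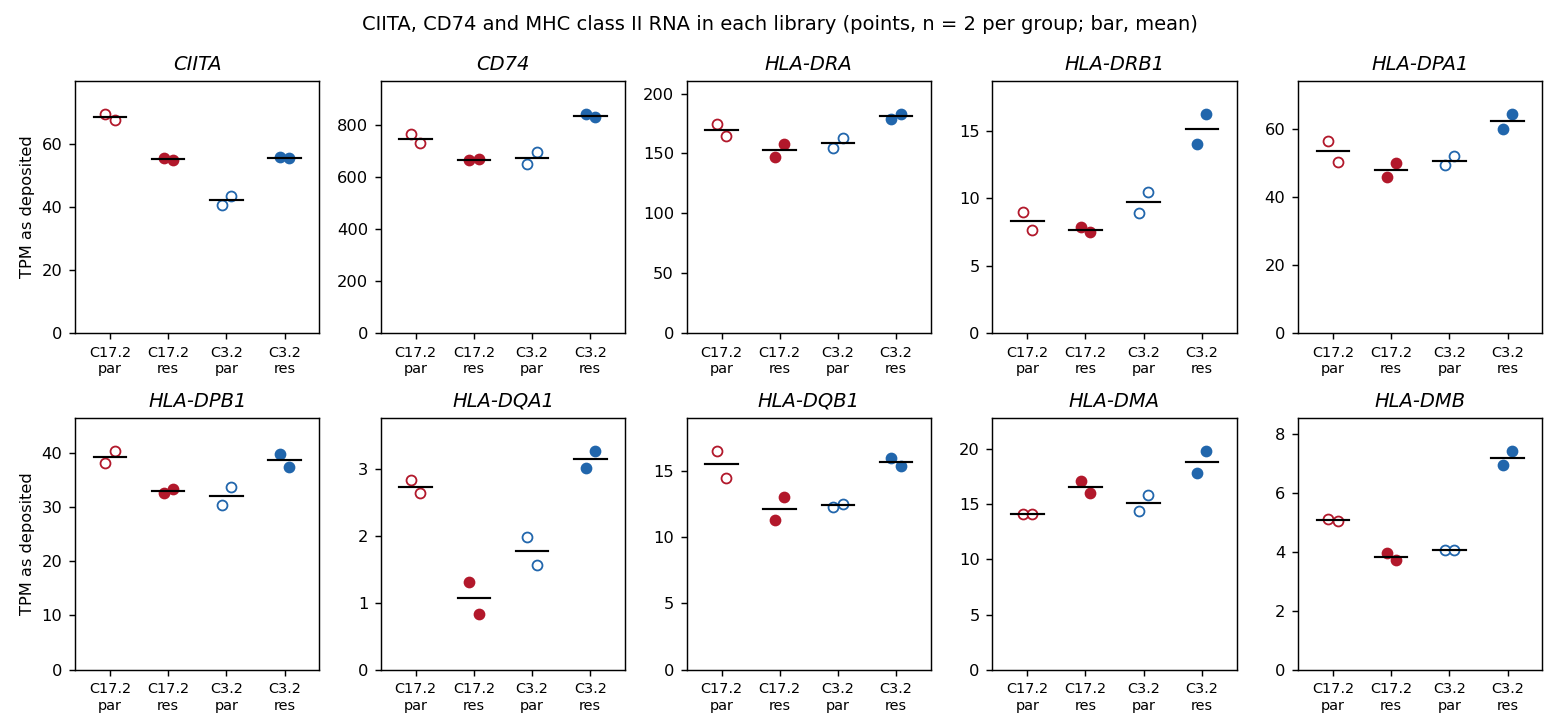
RNA level of each of the 10 genes in TPM as deposited (y axis, from 0) in the 8 libraries, by clone and state (x axis; par, parental; res, resistant). Open points are parental and filled points resistant libraries, and bars are group means. In C3.2 (blue) the filled points lie above the open ones for every gene, while in C17.2 (red) they lie below for CIITA, CD74 and most class II genes but above for HLA-DMA.

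CIITA, the transcriptional coactivator of the family, lay at 69.46 and 67.61 TPM in C17.2 parental and at 55.34 and 54.73 TPM in C17.2 resistant libraries. In C3.2 it lay at 40.60 and 43.53 TPM in parental and at 55.91 and 55.35 TPM in resistant libraries. The groups did not overlap within either clone. The resistant libraries of both clones were close in TPM as deposited, but on scaled TPM they lay apart, at 49.32 and 47.34 in C17.2 and 57.35 and 59.75 in C3.2. On scaled TPM, resistant cells held 0.718 times the parental mean in C17.2 (log2 fold change -0.47 ± 0.05 SE, limma adjusted p = 0.000994) and 1.26 times in C3.2 (0.33 ± 0.05, adjusted p = 0.0101). Between the clones, the change differed by -0.80 (95% CI -0.96 to -0.64, adjusted p = 0.00186). The C3.2 call was lost without either C3.2 parental replicate (adjusted p = 0.0767 and 0.053).

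CD74, the invariant chain and chaperone of class II heterodimers, lay at 762.90 and 730.40 TPM in C17.2 parental and at 663.99 and 667.64 TPM in C17.2 resistant libraries. In C3.2 it lay at 647.28 and 694.70 TPM in parental and at 841.47 and 827.94 TPM in resistant libraries. Neither clone's groups overlapped, and the highest values of all were those of C3.2 resistant cells. The log2 fold change was -0.33 ± 0.05 (SE) in C17.2 (limma adjusted p = 0.00361) and 0.25 ± 0.05 in C3.2 (adjusted p = 0.0223). Without library factors, that is on TPM as deposited, the C17.2 value was -0.16 (adjusted p = 0.09) and no longer passed, and under quantile normalization it was -0.09 (adjusted p = 0.32). In C3.2 it did not pass without either replicate of C17.2 parental (adjusted p = 0.0553 and 0.0547) or C3.2 parental (0.128 and 0.0748), or without C3.2 resistant replicate 2 (0.0603).

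HLA-DRA, the alpha chain of HLA-DR, lay at 174.76 and 164.77 TPM in C17.2 parental and at 147.41 and 157.99 TPM in C17.2 resistant libraries. In C3.2 it lay at 154.86 and 162.52 TPM in parental and at 178.81 and 183.05 TPM in resistant libraries. The groups were apart in both clones. The fall in C17.2 passed the test (-0.31 ± 0.05 SE, limma adjusted p = 0.00526), while the C3.2 value was 0.12 (95% CI 0.0046 to 0.24, adjusted p = 0.167). The C17.2 fall did not pass on TPM as deposited (-0.15, adjusted p = 0.11), and the C3.2 value passed after rescaling TPM within protein-coding genes (0.23, adjusted p = 0.0342).

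HLA-DRB1, its beta chain partner, lay at 8.97 and 7.65 TPM in C17.2 parental and at 7.89 and 7.47 TPM in C17.2 resistant libraries, which overlapped. In C3.2 it lay at 8.93 and 10.50 TPM in parental and at 14.02 and 16.26 TPM in resistant libraries. The C3.2 resistant libraries stood above all others, with 1.49 times the scaled parental mean (log2 fold change 0.53 ± 0.11 SE, limma adjusted p = 0.0308), while the C17.2 value was -0.24 (95% CI -0.51 to 0.028, adjusted p = 0.164). The C3.2 call did not pass when any library other than C3.2 resistant replicate 1 was left out, with adjusted p of 0.0621 to 0.163. The DR pair thus passed the test through its alpha chain in C17.2 and through its beta chain in C3.2, although the difference between the clones passed for both (-0.43 with adjusted p = 0.0153, and -0.77 with adjusted p = 0.0308). HLA-DRB1 has a close copy, HLA-DRB5, at 0.26 to 0.77 TPM, and reads the copies share cannot be assigned with certainty.

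HLA-DPA1 and HLA-DPB1 encode the alpha and beta chains of HLA-DP. HLA-DPA1 lay at 56.75 and 50.52 TPM in C17.2 parental, 46.06 and 50.02 TPM in C17.2 resistant, 49.52 and 52.10 TPM in C3.2 parental, and 60.21 and 64.59 TPM in C3.2 resistant libraries. HLA-DPB1 lay at 38.07 and 40.39 TPM, 32.54 and 33.29 TPM, 30.35 and 33.77 TPM, and 39.81 and 37.40 TPM in the same order of groups. On TPM as deposited both were lower in C17.2 resistant cells, by a narrow gap for HLA-DPA1 and a wide one for HLA-DPB1. On scaled TPM the C17.2 groups were well apart for both. HLA-DPA1 lay at 54.05 and 51.15 in parental and 41.05 and 43.27 in resistant libraries. HLA-DPB1 lay at 36.26 and 40.9 in parental and 29.0 and 28.8 in resistant libraries. The log2 fold changes of HLA-DPA1 and HLA-DPB1 in C17.2 were -0.31 (limma adjusted p = 0.017) and -0.40 (adjusted p = 0.0067), and in C3.2 they were 0.23 (adjusted p = 0.0856) and 0.20 (adjusted p = 0.117). The C17.2 call of HLA-DPA1 was lost when any of the 4 libraries of that clone was left out (adjusted p 0.0548 to 0.0991), on TPM as deposited (-0.15, adjusted p = 0.185) and after rescaling TPM within protein-coding genes (-0.23, adjusted p = 0.0504). That of HLA-DPB1 was kept in all 16 alternatives. In C3.2, HLA-DPA1 passed without C3.2 resistant replicate 1 (0.31, adjusted p = 0.0321), and both genes passed after rescaling TPM within protein-coding genes (0.33 with adjusted p = 0.0291, and 0.30 with adjusted p = 0.0321).

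HLA-DQA1 and HLA-DQB1 encode the chains of HLA-DQ. HLA-DQA1 lay at 2.84 and 2.64 TPM in C17.2 parental and at 1.32 and 0.83 TPM in C17.2 resistant libraries, and at 1.98 and 1.57 TPM in C3.2 parental and 3.02 and 3.28 TPM in C3.2 resistant libraries. It had the largest estimated fall of the 10 genes in C17.2, to 0.352 times the scaled parental mean. HLA-DQB1 lay at 16.51 and 14.45 TPM, 11.28 and 12.99 TPM, 12.29 and 12.51 TPM, and 15.94 and 15.35 TPM in the same order of groups. Both fell in C17.2, with log2 fold changes of -0.93 (limma adjusted p = 0.00562) and -0.48 (adjusted p = 0.00327), and in C3.2 they were at 0.55 (adjusted p = 0.0649) and 0.25 (adjusted p = 0.0583). Both passed in C3.2 after rescaling TPM within protein-coding genes (0.62 with adjusted p = 0.0406, and 0.35 with adjusted p = 0.0218). Because HLA-DQA1 is near the added constant of 1, its change on this scale is understated. The near copies HLA-DQA2 and HLA-DQB2 stayed at or below 0.3 TPM in all libraries.

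HLA-DMA and HLA-DMB encode the chains of the peptide exchanger HLA-DM. HLA-DMB lay at 5.12 and 5.04 TPM in C17.2 parental and at 3.95 and 3.71 TPM in C17.2 resistant libraries, and at 4.05 and 4.08 TPM in C3.2 parental and 6.95 and 7.44 TPM in C3.2 resistant libraries. It fell in C17.2 (log2 fold change -0.46 ± 0.08 SE, limma adjusted p = 0.00713) and rose in C3.2 (0.64 ± 0.08, adjusted p = 0.0062), with a difference between the clones of -1.10 (95% CI -1.37 to -0.84, adjusted p = 0.00331). The C3.2 call was lost without either C3.2 parental replicate (adjusted p = 0.0528 and 0.0539).

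HLA-DMA was the exception in C17.2. It lay at 14.10 and 14.07 TPM in parental and at 17.12 and 15.99 TPM in resistant libraries of that clone, and at 14.35 and 15.79 TPM in C3.2 parental and 17.83 and 19.85 TPM in C3.2 resistant libraries. As deposited, its resistant libraries were the higher ones in both clones. On scaled TPM the C17.2 libraries overlapped, at 13.43 and 14.25 in parental and 15.26 and 13.83 in resistant cells, and the log2 fold change was 0.07 (95% CI -0.15 to 0.28, limma adjusted p = 0.626). The C3.2 value was 0.24 (adjusted p = 0.139), and the clones differed in change by -0.18 (95% CI -0.48 to 0.13, adjusted p = 0.428). BRD2, which overlaps HLA-DMA on the other strand, lay at 80.55 to 133.96 TPM and did not pass in either clone.

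**Figure D2:**
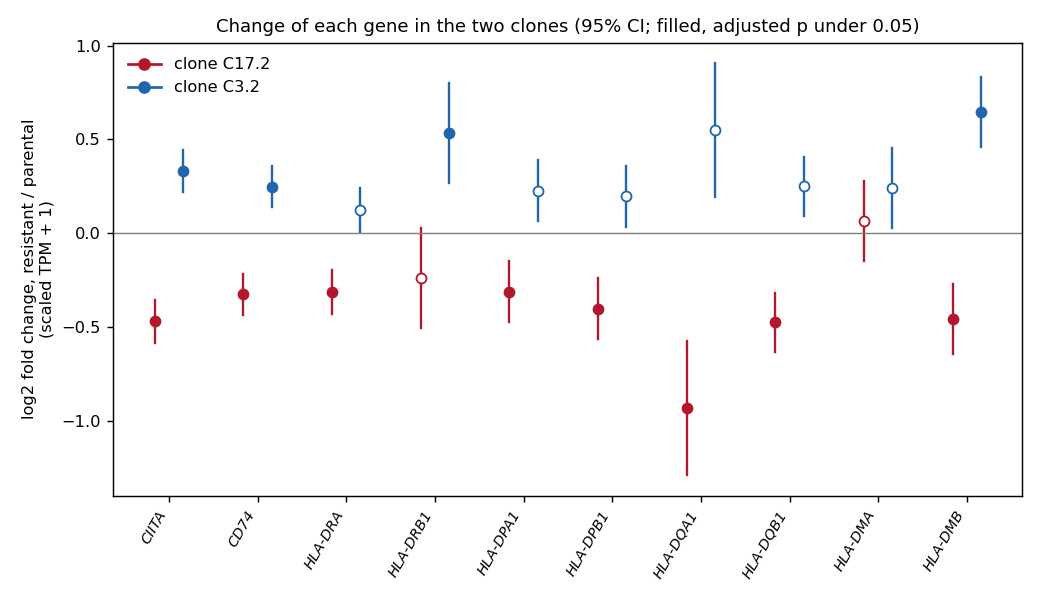
Log2 fold change of resistant over parental cells on log2(scaled TPM + 1) (y axis) for each of the 10 genes (x axis) in C17.2 (red) and C3.2 (blue), with 95% confidence intervals, 2 libraries per group. Filled points passed at an adjusted p under 0.05. The red points lie below 0 for every gene but HLA-DMA (0.07), and the blue points lie above 0 for all 10.

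Ratios of partner chains within a library do not depend on the library factors. The ratio of HLA-DMA to HLA-DMB was 2.75 and 2.79 in C17.2 parental and 4.33 and 4.31 in C17.2 resistant libraries, and it moved the other way in C3.2, from 3.54 and 3.87 to 2.57 and 2.67. The ratio of HLA-DRA to HLA-DRB1 was 17.3 and 15.5 in C3.2 parental and 12.8 and 11.3 in C3.2 resistant libraries, and overlapped between the C17.2 groups (19.5 and 21.5 in parental, 18.7 and 21.1 in resistant cells). The ratio of HLA-DQA1 to HLA-DQB1 was 0.172 and 0.183 in C17.2 parental against 0.117 and 0.0639 in C17.2 resistant libraries, and 0.161 and 0.125 against 0.189 and 0.214 in C3.2. Parental and resistant libraries thus did not overlap in this ratio for DM and DQ in both clones and for DR in C3.2. How often other gene pairs separate in this way was not examined, and the DQ ratio rests on HLA-DQA1 at 0.83 to 3.28 TPM. The HLA-DPA1 to HLA-DPB1 ratio stayed between 1.25 and 1.73 and its ranges overlapped between parental and resistant libraries in both clones. With 2 libraries against 2 an exact permutation test cannot go below p = 0.333, so the ratios carry no p-value here.

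**Figure D3:**
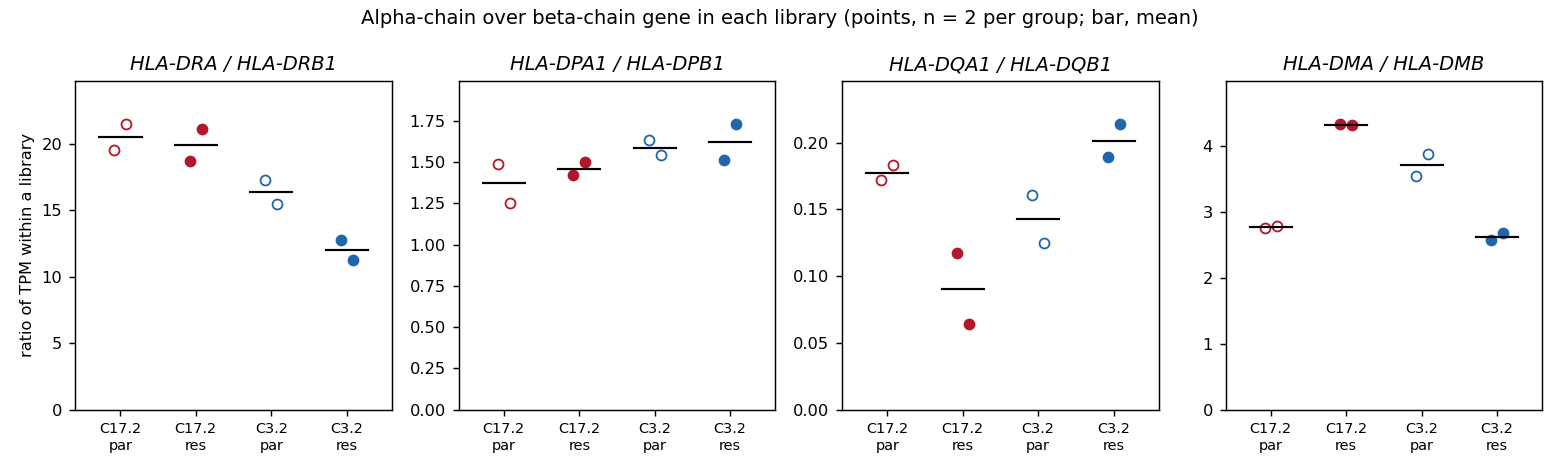
Ratio of the alpha-chain gene to the beta-chain gene in TPM within each library (y axis, from 0) for DR, DP, DQ and DM, by clone and state (x axis; par, parental; res, resistant). Points are libraries, 2 per group, and bars are means. The HLA-DMA to HLA-DMB ratio is higher in C17.2 resistant (4.33 and 4.31) than in C17.2 parental libraries (2.75 and 2.79) and lower in C3.2 resistant (2.57 and 2.67) than in C3.2 parental libraries (3.54 and 3.87).

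CD74 and HLA-DRA, the most abundant members, kept close proportions to each other but not to CIITA. The ratio of CD74 to HLA-DRA stayed between 4.18 and 4.71 in all 8 libraries. The ratio of CD74 to CIITA differed mainly by clone, at 10.8 to 11 in C17.2 parental and 12 to 12.2 in C17.2 resistant libraries but 15.9 to 16.0 in C3.2 parental and 15.0 to 15.1 in C3.2 resistant libraries. That of HLA-DRA to CIITA ran from 2.44 to 3.81 over all libraries.

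Parental cells of the clones were compared for their starting levels. CIITA was the only one of the 10 genes to pass, higher in C17.2 by a log2 difference of 0.53 ± 0.05 (SE, limma adjusted p = 0.00102), against 22.5% of all tested genes that differed in either direction. CD74 differed by -0.01 (95% CI -0.12 to 0.099) and HLA-DRA by -0.07 (95% CI -0.19 to 0.049), and the sign of both turned under other scalings. CD74 passed as higher in C17.2 under quantile normalization (0.28, limma adjusted p = 0.0214). HLA-DPB1 and HLA-DMB passed as higher on TPM as deposited (0.28 and 0.26, limma adjusted p = 0.0307 and 0.0351). HLA-DMA passed as lower with only the 4 parental libraries in the fit (-0.25, limma adjusted p = 0.0461). HLA-DRB1 was at -0.35 (adjusted p = 0.0658), and it passed, lower in C17.2, without either C3.2 resistant replicate (adjusted p = 0.038 and 0.0403). The titles give the libraries of each clone a run of numbers of its own without saying what it marks, so the clone and whatever it marks cannot be told apart in this comparison.

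Among the other class II genes, HLA-DOA, the alpha chain of the HLA-DM modulator HLA-DO, was the only one of 5 in the table to reach 1 TPM. It lay at 17.69 and 18.32 TPM in C17.2 parental, 13.17 and 12.73 TPM in C17.2 resistant, 13.74 and 14.52 TPM in C3.2 parental, and 19.30 and 17.76 TPM in C3.2 resistant libraries. It was lower in C17.2 (log2 fold change -0.59, limma adjusted p = 0.00119) and higher in C3.2 (0.31, adjusted p = 0.029), the directions of CIITA, CD74 and HLA-DMB, and its C3.2 call was lost when any C3.2 library was left out (adjusted p 0.0776 to 0.147). HLA-DOB, its beta chain partner, stayed between 0.37 and 0.6 TPM. The 6 class II pseudogenes summed to at most 0.05 TPM in any library.

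Of the 7 genes for the factors that bind the X and Y boxes, 1 was higher and 3 were lower in C17.2 resistant cells, and 1 was lower in C3.2 resistant cells, with a list median of -0.04 and 0. Of all tested genes, 13.4% were higher and 13.9% lower in C17.2, and 4.46% were higher and 6.9% lower in C3.2. RFXAP, a subunit of RFX, was lower in both clones (log2 fold change -0.65, limma adjusted p = 0.00116 in C17.2; -0.39, adjusted p = 0.0185 in C3.2), from 10.04 and 8.61 TPM to 5.90 and 6.50 TPM in C17.2 and from 6.71 and 6.81 TPM to 5.47 and 4.90 TPM in C3.2. NFYA, a subunit of NF-Y, was higher in C17.2 (0.49, adjusted p = 0.00149), and RFXANK and NFYC were lower there (both -0.25, adjusted p = 0.0258). RFX5, the DNA-binding subunit of RFX, was at -0.04 in C17.2 and 0.05 in C3.2 and passed in neither. The difference between the clones passed for 0 of these 7 genes. Among all 15614 tested genes it passed above 0 for 767 and below 0 for 779, so a count of 0 among 7 genes says little.

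Of 14 tested genes for factors and signals known to act on CIITA in B or myeloid cells or under interferon, 1 was higher and 4 were lower in C17.2, and 2 were higher and 4 lower in C3.2. The shares over all tested genes were 13.4% higher and 13.9% lower in C17.2, and 4.46% higher and 6.9% lower in C3.2. IRF1, an interferon-induced activator, fell in both clones, from 45.70 and 38.35 TPM to 24.06 and 22.46 TPM in C17.2 (log2 fold change -0.98, limma adjusted p = 0.000501) and from 36.64 and 37.88 TPM to 30.66 and 26.30 TPM in C3.2 (-0.45, adjusted p = 0.0208). The difference between the clones passed for IRF1 (-0.53, adjusted p = 0.0364), though not when any library other than C3.2 resistant replicate 2 was left out (adjusted p 0.063 to 0.125). SPI1, which encodes the factor PU.1, was lower in C17.2, from 22.45 and 18.33 TPM to 11.56 and 9.85 TPM (-1.01, adjusted p = 0.00333), and its difference between the clones was -0.73 (95% CI -1.20 to -0.25, adjusted p = 0.0704). PAX5, the B-lineage factor, was higher in C3.2 (0.27, adjusted p = 0.0229) and at 0.02 in C17.2. JAK2, a kinase of the interferon receptor, was higher in both clones (0.84, adjusted p = 0.00274; 0.68, adjusted p = 0.0153), and TCF3, a basic helix-loop-helix factor, was lower in both (-0.52, adjusted p = 0.00198; -0.41, adjusted p = 0.0127). IRF2, of the same family as IRF1, was also lower in both (-0.26, adjusted p = 0.00776; -0.28, adjusted p = 0.0149), and IKZF1, the lymphoid factor Ikaros, was lower in C3.2 (-0.17, adjusted p = 0.0359) and at 0.04 in C17.2.

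Of 11 tested genes that process antigen or invariant chain in endosomes or turn class II molecules over, 3 were higher and 3 lower in C17.2, and 2 were higher and none lower in C3.2. Over all tested genes the shares were 13.4% higher and 13.9% lower in C17.2, and 4.46% higher and 6.9% lower in C3.2. IFI30, a thiol reductase of lysosomes, was at 16.11 and 15.93 TPM in C17.2 parental and 8.92 and 9.48 TPM in C17.2 resistant libraries (log2 fold change -0.88, limma adjusted p = 0.000943), and its change differed between the clones (-0.70, adjusted p = 0.0202). CTSH, a cathepsin, was higher in C17.2 (0.57, adjusted p = 0.0177) and at -0.47 in C3.2 (adjusted p = 0.0611), the opposite of the class II genes, with a difference of 1.04 between the clones (adjusted p = 0.0182). CTSB and CTSC, also cathepsins, were higher in both clones, by 0.27 and 0.30 in C17.2 and by 0.31 and 0.28 in C3.2. CTSS, the main invariant chain protease of B cells, was at -0.26 in C17.2 (adjusted p = 0.0316), where CTSZ was at -0.31 (adjusted p = 0.0085).

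Of 3 tested co-stimulation and adhesion genes, ICAM1 (log2 fold change -0.50, limma adjusted p = 0.0173) and ICOSLG (-0.32, adjusted p = 0.0176) were lower in C17.2, and none passed in C3.2. Of all tested genes, 13.9% were lower in C17.2, and 4.46% were higher and 6.9% lower in C3.2. CD40 was at -0.50 in C17.2 (adjusted p = 0.0511).

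**Figure D4:**
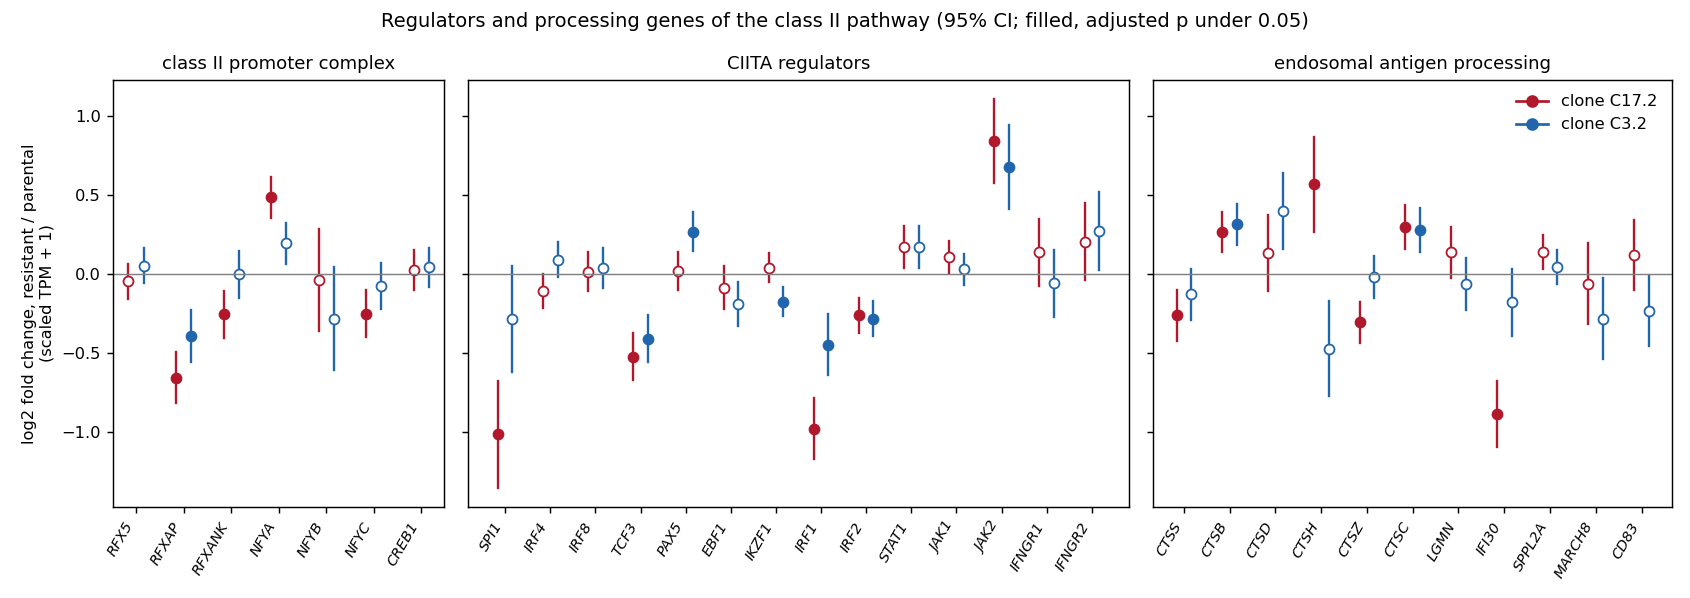
Log2 fold change of resistant over parental cells on log2(scaled TPM + 1) (y axis) for genes of the class II promoter complex, regulators of CIITA and endosomal processing genes (x axes) in C17.2 (red) and C3.2 (blue), with 95% confidence intervals. Filled points passed at an adjusted p under 0.05. RFXAP, IRF1, TCF3 and IRF2 lie below 0 in both clones, JAK2, CTSB and CTSC lie above 0 in both, and CTSH lies on opposite sides.

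Genes that stand between or beside the class II genes on chromosome 6 were read from the same fit. Of 13 tested neighbors, 2 were higher and 1 was lower in C17.2, near the 13.4% and 13.9% of all tested genes, and 0 passed in C3.2, against 4.46% higher and 6.9% lower. The list medians were 0.07 and -0.04. The one that fell was TAP1, a peptide transporter subunit of the class I pathway, from 5.24 and 5.53 TPM to 3.37 and 4.04 TPM (log2 fold change -0.57, limma adjusted p = 0.00453). Those that rose were SLC39A7 (0.36, adjusted p = 0.0102), a zinc transporter, and RXRB (0.27, adjusted p = 0.0069), a nuclear receptor on the centromeric side of HLA-DPB1. The difference between the clones passed for RXRB (0.29, adjusted p = 0.041) and was 0.40 for SLC39A7 (95% CI 0.17 to 0.63, adjusted p = 0.0503), both of the sign opposite to that of the class II genes. RXRB did not pass in 7 of the 8 fits that left out a library (adjusted p 0.0731 to 0.122).

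**Figure D5:**
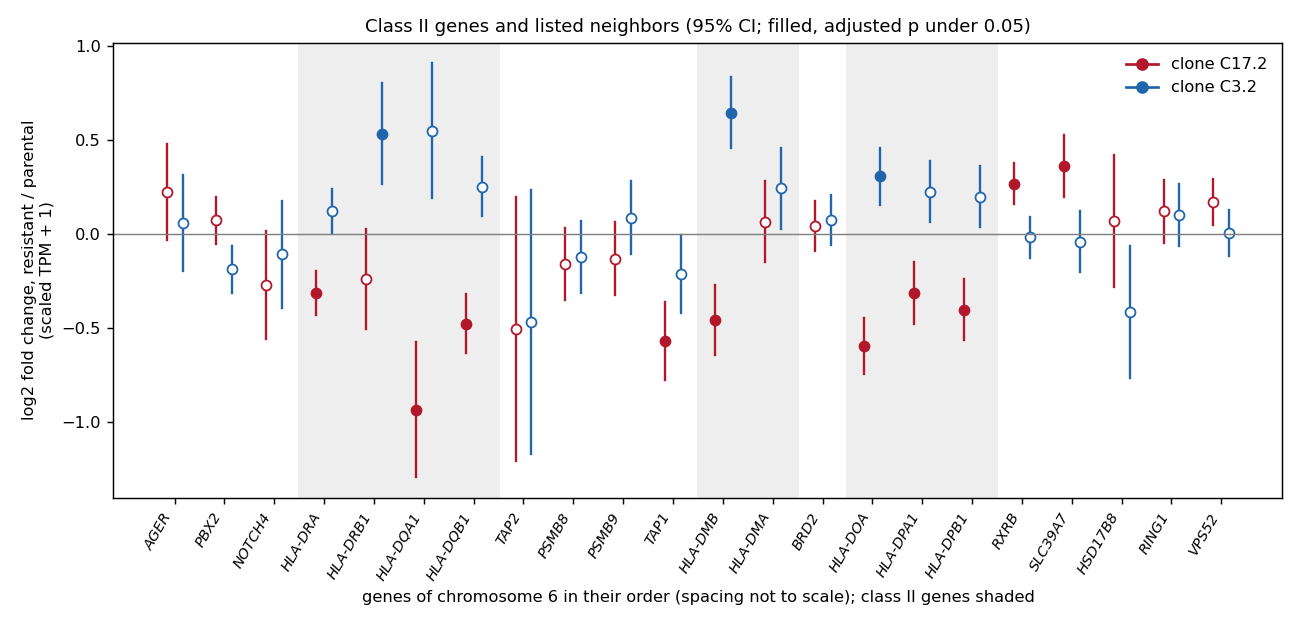
Log2 fold change of resistant over parental cells on log2(scaled TPM + 1) (y axis) for tested class II genes (shaded) and neighbors in their order along chromosome 6 (x axis, not to scale) in C17.2 (red) and C3.2 (blue), with 95% confidence intervals. Filled points passed at an adjusted p under 0.05. Red points below 0 and blue points above 0 recur over shaded genes, while TAP1 (-0.57) is the only unshaded gene that passed below 0.

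Around CIITA on chromosome 16, DEXI, which overlaps it on the other strand, was higher in C17.2 (log2 fold change 0.42, limma adjusted p = 0.023) where CIITA was lower, and RMI2 was lower in both clones (-0.48, adjusted p = 0.00307; -0.30, adjusted p = 0.0351). The other 3 tested neighbors passed in neither clone. Of the 5 tested, 1 was thus higher and 1 lower in C17.2, and 1 was lower in C3.2. Beside CD74 on chromosome 5, 4 neighbors were tested. RPS14, a ribosomal protein gene, was lower in both clones (-0.37, adjusted p = 0.00196; -0.36, adjusted p = 0.00685), and SYNPO was lower in C17.2 (-0.70, adjusted p = 0.00758). TCOF1, at 0.21 in C17.2 (adjusted p = 0.0655), and NDST1, at -0.14 there, passed in neither clone. Of all tested genes, 13.4% were higher and 13.9% lower in C17.2, and 4.46% were higher and 6.9% lower in C3.2.

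Several B-lineage markers were lower in the resistant cells of both clones. Of 10 tested, 6 were lower in C17.2 (13.9% of all tested genes) and 6 were lower in C3.2 (6.9% of all), where PAX5 was the only one that passed as higher, and the list summed to 784.9 to 948.7 TPM in C17.2 and to 714.6 to 935.3 TPM in C3.2. VPREB3, a pre-B-cell receptor component, fell in both clones (log2 fold change -3.35, limma adjusted p = 4.25e-05; -2.35, adjusted p = 0.000534), as did IGLL1, the surrogate light chain gene (-2.16, adjusted p = 2.27e-05; -2.35, adjusted p = 0.000122). CD79B, of the B-cell receptor, was at -1.51 and -1.03, and RAG2, of the recombinase, at -0.97 and -1.99. These genes thus fell in both clones, whereas CIITA, CD74 and HLA-DMB fell in C17.2 and rose in C3.2. Of 13 monocyte and dendritic cell markers, 9 were under 1 TPM in every library, FCGR3A was listed at 0 in all, and the list summed to 11.92 to 18.08 TPM, most of it CLEC9A, which was lower in both clones (-0.56, adjusted p = 0.00236; -0.67, adjusted p = 0.00415). CSF1R of that list was at -0.64 in C17.2 (adjusted p = 0.0421), and TRAC was lower in both clones (-0.42, adjusted p = 0.000667; -0.22, adjusted p = 0.0186). Whether the shifts in these markers bear on the class II results was not tested.

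Other genes whose pattern over the 8 libraries was most like that of CIITA were sought among 2579 tested protein-coding genes that vary at least as much as the set minimum (SD of 0.25 on log2(scaled TPM + 1)). By Pearson r these were BMF (r = 0.977), MOB3B (r = 0.97) and FAM49A (r = 0.96). BMF, a BH3-only regulator of cell death, lay at 28.19 and 26.42 TPM in C17.2 parental, 19.53 and 18.66 TPM in C17.2 resistant, 15.43 and 16.01 TPM in C3.2 parental, and 22.58 and 22.60 TPM in C3.2 resistant libraries. For HLA-DRA they were GCA (r = 0.991), BOLA3 (r = 0.973) and LRP5 (r = 0.967). GCA, a calcium-binding protein gene, lay at 9.24 and 9.17 TPM, 6.81 and 7.81 TPM, 8.96 and 9.12 TPM, and 9.83 and 11.16 TPM in the same order of groups. Among the 10 genes themselves, the r of each with CIITA ran from -0.065 for HLA-DMA to 0.671 for HLA-DQA1. The 8 libraries share clones and groups, so these values describe the libraries and carry no p-value.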

How the data were processed

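RNA-seq libraries, 8 in all, were made from SEM cells (2 clones, parental and resistant, 2 libraries each) after ribosomal depletion, as the study's methods state. The labels give single-end reads, whereas the methods give paired-end reads. Per the methods and the submitters' processing notes, the authors trimmed reads with Trim Galore 0.6.3, aligned them with STAR 2.7.9a to the hg38 build and quantified Gencode release 31 genes with RSEM 1.3.1. The deposited values are TPM to 0.01, normalized by the authors to a fixed sum per library. Depth is unknown, and protein-coding genes took 36 to 43.3% of the TPM.

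The study's own test used counts, which were not used here. Library factors were a trimmed mean of log2 ratios to the mean library (after removing 30% of the ratios and 5% of the mean levels at either end), and limma 3.58.1 (R 4.3.3) with an intensity trend was fitted to log2(scaled TPM + 1) over the 15614 genes reaching 1 TPM in any library, in 1 model of 4 groups. Tests were two-sided with Benjamini-Hochberg adjustment over all tested genes at 0.05. A fold change on this scale understates that of low genes. Companion genes named were, in each list and clone, the 4 with the largest change past the threshold, plus CTCF and the 3 genes most like CIITA and HLA-DRA. Other companion genes given with values were chosen after their values were seen. These genes and lists were chosen with earlier results of these data known. The fit was tested on simulated data. In all, 19 alternatives were run (scaling, pseudocount, filter, trend, libraries in the fit, a replicate block, each library left out).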

Additional observations from a re-analysis of the deposited data

Results flagged for a closer look

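Each gene here was picked out because the test of the difference between the clones (the log2 fold change in C17.2 minus that in C3.2, limma interaction) passed at an adjusted p under 0.05. Among the class II genes, CD74 and CIITA, the difference was -0.80 for CIITA, -0.57 for CD74, -0.43 for HLA-DRA, -0.77 for HLA-DRB1, -0.54 for HLA-DPA1, -0.60 for HLA-DPB1, -1.48 for HLA-DQA1, -0.73 for HLA-DQB1, -1.10 for HLA-DMB and -0.90 for HLA-DOA. Among the companion genes it was -0.48 for CD79B, -0.999 for VPREB3, -0.53 for IRF1, -0.54 for ICOSLG and -0.70 for IFI30. It was above 0 for CTSH at 1.04, for RAG2 at 1.02 and for RXRB at 0.29. CD79B and VPREB3 fell in both clones and by more in C17.2, while RAG2 fell in both and by more in C3.2.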

How the results depend on the processing

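The sign of the change in C17.2, of the change in C3.2 and of the difference between the clones was kept for all 10 genes in every alternative run. The number of the 10 genes that passed in C17.2 was 8, and 5 on TPM as deposited. In C3.2 it was 4, and 9 after rescaling TPM within protein-coding genes, 2 with no filter on low values and 1 with only the 4 libraries of the clone. Leaving out a library gave 7 to 8 genes in C17.2, 0 to 5 in C3.2, 5 to 9 for the difference between the clones and 1 to 2 for the parental clones. The parental count of 1 became 3 on TPM as deposited, 2 under quantile normalization and 2 with only the 4 parental libraries. TPM as deposited moved the median of all genes to 0.135 in C17.2, and with it the share of higher genes among those that passed went from 49.1% to 75.1% in C17.2 and from 39.3% to 57.8% in C3.2, while the rescaling over protein-coding genes gave 64.5% and 70.1% and quantile normalization gave 50.8% in C3.2. In the parental comparison the sign turned for CD74 at 0.15 (TPM as deposited), 0.067 (rescaled), 0.28 (quantile normalization), and it ran from -0.041 to 0.016 with a library left out, above 0 without C17.2 parental replicate 1 (0.0037) and without C3.2 parental replicate 2 (0.016). It turned for HLA-DRA at 0.097, 0.0094 and 0.049 under the same 3 scalings, and for HLA-DPA1 at 0.075 on TPM as deposited. Of the companion genes, 21 passed in C3.2, against 5 with only the 4 libraries of the clone and 7 to 26 with a library left out, the low end being without either C3.2 parental replicate. The causes were not tested. The library codes in the titles are shared between the clones but not within a clone, so a replicate block, chosen after seeing the data, bore only on the comparisons between clones. Deviations of same-coded libraries from their group means correlated at -0.114 for the parental and 0.0186 for the resistant libraries, so the codes were not taken as pairs. With the block, 7 of the 10 genes passed for the difference between the clones and 1 for the parental comparison, with 600 of all tested genes passing for the former and 2473 for the latter, and crossing the parental codes gave 1 and 2446 for the latter. HLA-DRB1 (adjusted p = 0.101) and HLA-DQA1 (adjusted p = 0.0524) lost the call with the block.

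With 2 libraries per group and no depth, a p that missed the threshold does not show that a gene did not change. HLA-DQA1 and HLA-DMB are the lowest of the 10 genes and the HLA genes were counted against a single reference.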
